A study of Homo sapiens with 6 samples.

Results

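GDF15 encodes growth differentiation factor 15, a secreted stress cytokine of the TGF-beta superfamily. It is 1 of 11963 genes named by the platform annotation, which assigned it 2 of the 22277 probe sets on the array, 221577_x_at and 221576_at, and both are described here over all 6 arrays. GDF15 was selected on its measured signals in these same arrays, namely its large rise in siRRM1 and its step between the knockdowns. The cells were NCI-H929, a human line established from multiple myeloma, and RNA was taken 24 h after small interfering RNA (siRNA) was delivered by electroporation. There were 2 arrays of cells given siRNA against RRM1 (siRRM1), 2 of cells given siRNA against RRM2 (siRRM2) and 2 of cells given a scrambled control siRNA that targets no gene (scramble). Every group went through electroporation, and no array of cells without it was analysed here. The labels do not say how many different siRNAs were used per target, or whether both arrays of a group stem from independent cultures, so p-values measure only the spread between these samples, which may be technical.

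RRM1 and RRM2 are the large and small subunits of ribonucleotide reductase, which supplies the deoxyribonucleotides that DNA replication consumes. GDF15 is made as a precursor, cut by furin-like proprotein convertases and secreted as a disulfide-linked dimer. Its hormone-like action runs through GFRAL, a receptor of the brainstem that signals with the tyrosine kinase RET and lowers food intake. In many cell types its transcription is raised by p53 after DNA damage, and by ATF4 and CHOP (the product of DDIT3) in the integrated stress response.

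The bases just upstream of the GDF15 start are shown because the transcription factors described further on act on genes such as this one through their promoters. RefSeq's table for GRCh38.p14 places this stretch of 250 bases at chr19:18385908-18386157 on the plus strand, and 58.4% of its bases were G or C. Capitals mark a TATA box and a pair of GC boxes, the motif bound by SP1.
GDF15 promoter: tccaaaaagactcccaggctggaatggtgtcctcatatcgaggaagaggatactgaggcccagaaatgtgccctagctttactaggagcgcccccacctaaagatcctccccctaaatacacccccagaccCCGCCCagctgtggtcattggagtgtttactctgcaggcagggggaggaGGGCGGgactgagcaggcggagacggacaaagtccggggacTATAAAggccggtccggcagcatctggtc
Motifs were searched on both strands in the same window of all 35116 promoters of that table. The TATA box (TATAAA) lay 29 to 24 bases before the start, and 10.7% of promoters held one. The GC box (GGGCGG) occurred 119 to 114 bases before the start on the minus strand and 70 to 65 bases before it on the plus strand, and 42.6% of promoters held at least 1. The letters of an AP-1 site (TGANTCA, in 6.57% of promoters), a cAMP response element (TGACGTCA, in 1.65%), the core of a C/EBP-ATF element (TGATGNAA, in 3.14%), an EGR1 site (GCGNGGGCG, in 8.41%), an E-box of TFEB and TFE3 (CACGTG, in 6.34%) and the p53 half-site (in 5.57%) were not in this window. A match is a description of letters, and the window says nothing of sites elsewhere in the gene.

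The 221577_x_at signal was highest after RRM1 knockdown, intermediate after RRM2 knockdown and lowest in the control. On the log2 scale it was 8.93 and 9.40 in siRRM1, 5.90 and 6.31 in siRRM2, and 4.86 and 4.67 in scramble. No array of one group overlapped with another group. The group means were 9.16 ± 0.33 in siRRM1, 6.11 ± 0.29 in siRRM2 and 4.76 ± 0.13 in scramble (SD, n = 2 each). Because this pattern chose the gene, its levels and differences are described without a test.

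The log2 difference between siRRM1 and scramble was 4.40 (SE 0.19), a 21.2-fold difference in signal. Between siRRM2 and scramble it was 1.35 (SE 0.19), a 2.54-fold difference in signal. The siRRM1 arrays lay 3.06 above the siRRM2 arrays (SE 0.19), which is 8.32-fold. The folds are ratios of the deposited signals and not of transcript amounts, since it was not tested whether the scramble signal exceeded background. These standard errors come from the limma fit described under processing, in which the 3 groups share an estimate of spread. Both differences against scramble use the same pair of control arrays. In bulk RNA, a rise in a few cells and a rise in all cells cannot be told apart, nor can fewer cells of a type and less RNA per cell.

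In scramble the 221577_x_at signal stood low on the array. Of all probe sets, 81.3% and 85.8% had a lower signal on the siRRM1 arrays, 46.5% and 52.1% on the siRRM2 arrays, and 31.6% and 28.1% on the scramble arrays. Both scramble values lay under the log2 signal of 5.44 (the 40th percentile of all probe set means) used here as the filter for testing, so GDF15 passed that filter through the knockdown arrays. The deposited values carry no detection call.

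**Figure D1:**
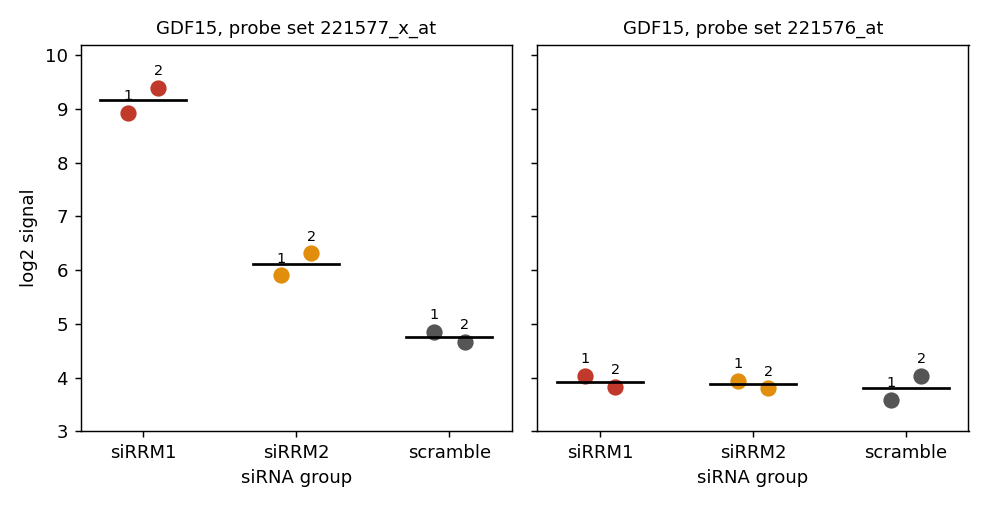
Log2 signal (y axis) of the GDF15 probe sets 221577_x_at (left) and 221576_at (right) on each array, by siRNA group (x axis). Points are arrays numbered by replicate and lines are group means. The 221577_x_at groups separate, with siRRM1 at 8.93 and 9.40, siRRM2 at 5.90 and 6.31 and scramble at 4.86 and 4.67, while every 221576_at value lies between 3.59 and 4.03.

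The other GDF15 probe set, 221576_at, did not show this pattern. Its log2 signal was 4.03 and 3.82 in siRRM1, 3.94 and 3.80 in siRRM2, and 3.59 and 4.03 in scramble. The 3 groups overlapped. Its log2 differences were 0.11 for siRRM1 against scramble, 0.060 for siRRM2 against scramble and 0.054 for siRRM1 against siRRM2 (SE 0.16 each). Its mean over the arrays was 3.87, under the filter, and between 11.9% and 18.8% of probe sets were lower on any array. The annotation gives the same accession for both probe sets, and which part of the transcript each one reads was not analysed here.

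Every statement on a GDF15 rise therefore rests on 221577_x_at. The suffix _x_at marks a probe set whose probes may also match other transcripts. It was carried by 2428 probe sets, 10.9% of the array, and by 9 of the 100 largest rises in siRRM1. Other risen genes also had probe sets that differed among themselves. Of 23 genes whose brightest probe set was at least 2 log2 units higher in siRRM1 than in scramble, 9 had more than 1 probe set. In 5 of those 9, namely GDF15, RGS1, IL17A, TNC and ACTA2, another probe set differed by under 0.5.

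Among all 22277 probe sets, 221577_x_at held rank 2 of the log2 differences between siRRM1 and scramble. Ahead of it was GZMB, the granule protease granzyme B, at 4.50, and behind it S100A8, a subunit of the myeloid protein calprotectin, at 4.23. These were the 3 probe sets with a difference of at least 4, and 9 reached 3. The siRRM1 arrays lay closer together for GDF15 than for these neighbours. Against the scramble mean, GDF15 was 4.17 higher on siRRM1 replicate 1 and 4.64 higher on siRRM1 replicate 2, which ranked 1 and 3 on those arrays. GZMB signals were 9.56 and 10.90 in siRRM1 and S100A8 signals 7.88 and 9.46, so their siRRM1 arrays lay over 1 log2 unit apart.

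In siRRM2 the same probe set ranked 29. Its arrays were 1.14 and 1.55 above the scramble mean, which ranked 34 and 29 on those arrays. Its neighbours in rank were ZFP36L2 (1.35), an RNA-binding protein that promotes mRNA decay, just above, and PTPRC (1.33), the leukocyte phosphatase CD45, at rank 31. The siRRM2 rises were smaller in general, with 207 probe sets at 1 or more in siRRM1 and 58 in siRRM2. The rank was 47 without scramble replicate 2, where the difference was measured against replicate 1 alone.

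Between the knockdowns GDF15 held rank 1. Its difference of 3.06 was the one value of at least 3 among the 22277 probe sets. The next probe sets were RRM2 itself (2.91, probe set 209773_s_at), whose transcript was the target in the siRRM2 arrays, then RGS1 (2.44), a regulator of G protein signalling, RRM2 by its other probe set (2.03, 201890_at) and TNC (1.76), the matrix glycoprotein tenascin C. LAPTM5, a membrane protein of lysosomes in blood cells, had 1.66. GDF15 had rank 2 when either siRRM1 array was left out, and rank 1 when any other array was.

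The other leading genes of siRRM1 are given beside GDF15 for both knockdowns. Among the 10 probe sets with the largest rises in siRRM1, the log2 differences in siRRM2 were 3.10 for GZMB, 1.35 for GDF15, 2.94 for S100A8, 2.60 for the cytokine IL10 and 1.87 for LAPTM5. The remaining siRRM2 differences were 1.08 for RGS1, 2.68 for the sorting receptor SORL1, 2.04 for the cytokine IL17A, 2.15 for the antisense transcript DTNB-AS1 and 2.09 for the cyclin-dependent kinase inhibitor CDKN1A. RGS1 was the one member of these 10 with a smaller siRRM2 difference than GDF15. The siRRM1 and siRRM2 comparisons share the scramble arrays.

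**Figure D2:**
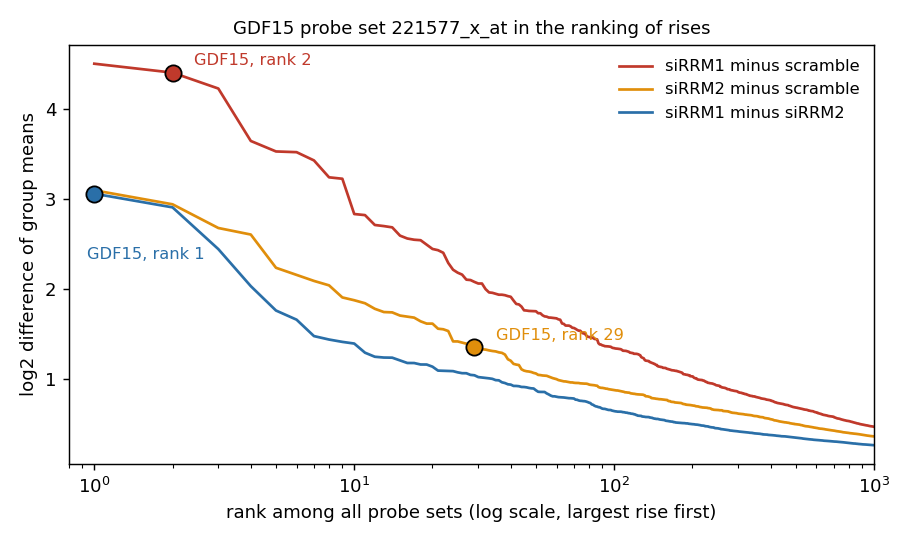
Log2 difference of group means (y axis) against rank among all 22277 probe sets (x axis, log scale, first 1000 ranks) for siRRM1 minus scramble, siRRM2 minus scramble and siRRM1 minus siRRM2. Circles mark GDF15 probe set 221577_x_at, at rank 2 with 4.40, rank 29 with 1.35 and rank 1 with 3.06.

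Each siRNA lowered its own target, and the order of target and GDF15 signals within a group differed between the knockdowns. RRM1 (201477_s_at) had log2 signals of 8.93 and 7.99 in siRRM1, against 11.06 and 11.11 in scramble (adjusted p = 0.00154). RRM2 (201890_at) had 10.54 and 11.44 in siRRM2, against 12.78 in both scramble arrays (adjusted p = 0.0214, but 0.0748 without scramble replicate 1 and 0.0557 without scramble replicate 2). By its other probe set (209773_s_at), RRM2 had 9.59 and 10.12 in siRRM2, against 12.51 and 12.59 in scramble. The RRM2 log2 difference was thus -1.79 by 201890_at and -2.70 by 209773_s_at, beside -2.63 for RRM1 by 201477_s_at in siRRM1. In siRRM1 the array with less RRM1 had more GDF15 (replicate 2), whereas in siRRM2 the array with less RRM2 had less GDF15 (replicate 1). GDF15 was higher on replicate 2 in both knockdowns, so the order within a group cannot be told apart from replicate number. With 2 arrays a group, neither order was tested.

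The 3′ over 5′ control probe sets of ACTB, a check of RNA quality, had log2 gaps of 0.030 and 0.33 in siRRM1, 0.048 and 0.051 in siRRM2, and 0.34 and 0.15 in scramble. The siRRM1 replicate 2 array, with the higher GDF15 signal of its group, thus had a gap near that of scramble replicate 1. The GDF15 difference between siRRM1 and scramble was 4.17 without siRRM1 replicate 2, close to the 4.40 with it.

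The genes whose profile was most like GDF15 depended on how likeness was measured. By Euclidean distance over the 6 arrays, with each profile centred on its scramble mean, the nearest was LAPTM5 (distance 1.47). RGS1 (1.84), IL17A (1.98), IL10 (2.18), DTNB-AS1 (2.29), SORL1 (2.36), CDKN1A (2.49), the chemokine CCL4 (2.53), the TNF family ligand TNFSF9 (2.53) and S100A8 (2.57) followed. These are large rises in general, since distance reads size. LAPTM5 (201721_s_at) had log2 signals of 8.47 and 8.90 in siRRM1, 6.78 and 7.27 in siRRM2, and 5.07 and 5.24 in scramble. Its groups did not overlap either, and its siRRM2 arrays stood relatively higher than those of GDF15.

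By Pearson r over the 6 arrays, which reads shape, the nearest genes were smaller rises. Of the 532 genes with a probe set spanning at least 1 log2 unit, the highest r was 0.997 for SAT1, which acetylates spermidine and spermine. It was followed by PMAIP1 (0.994), the gene of the pro-apoptotic protein NOXA, and ARMC9 (0.993), a protein of the primary cilium. Next was TFEC (0.992), a transcription factor of the TFEB family, whose signals of 3.71 to 4.81 were under the filter on every array. The other 6 were C14orf132 (0.991), the ciliary gene RPGRIP1L (0.989), the kinase PLK2 (0.988), the quinone oxidoreductase TP53I3 (0.988), LAPTM5 by its other probe set (0.987) and ANKRA2 (0.987). These r values rest chiefly on 3 group levels of 2 arrays each and are given as a description. LAPTM5 was the 1 gene on both lists, and it was so through different probe sets.

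These genes were picked for likeness to GDF15 on the same arrays, so their shared shape is no result. In each, the step between the knockdowns exceeded the step between siRRM2 and scramble. These log2 steps were 1.02 and 0.31 for RPGRIP1L, and 0.90 and 0.61 for ANKRA2. PMAIP1 (204286_s_at) had log2 signals of 7.39 and 7.79 in siRRM1, 6.19 and 6.52 in siRRM2, and 5.75 and 5.61 in scramble. SAT1 (213988_s_at) had 8.84 and 8.88 in siRRM1, 8.15 and 8.29 in siRRM2, and 7.90 and 7.85 in scramble. Neither gene's groups overlapped. Of the 10 genes nearest by r, 3 (PMAIP1, PLK2 and TP53I3) were on the list of p53 targets used here, which had 17 members among the genes spanning at least 1 log2 unit. Of the 10 nearest by distance, 1 (CDKN1A) was.

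**Figure D3:**
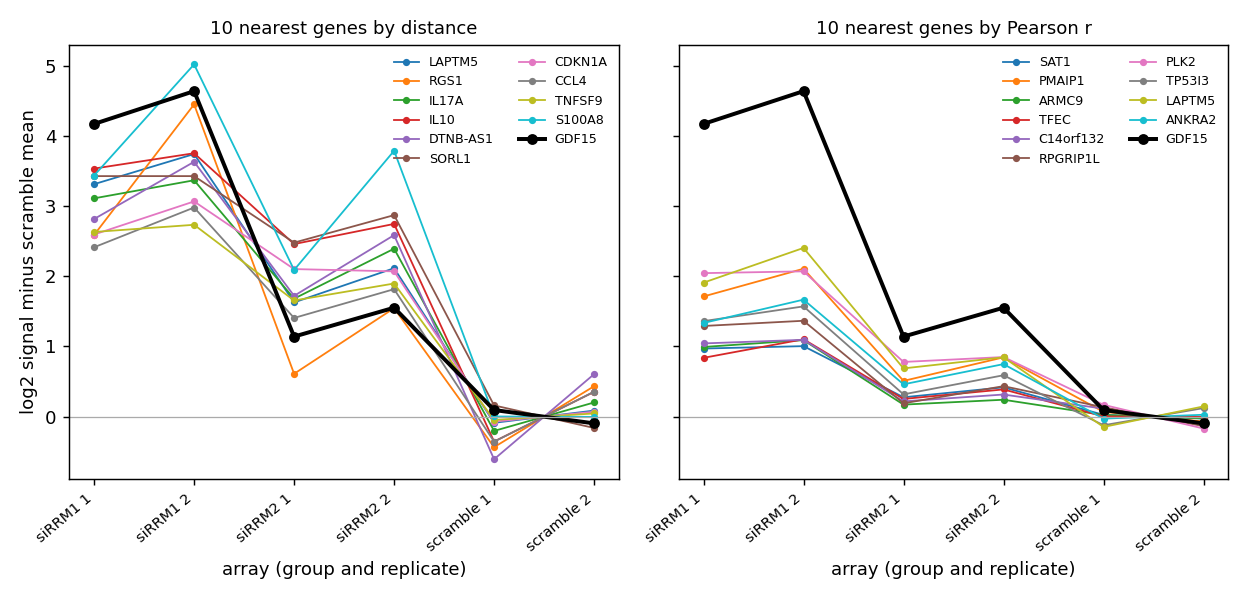
Log2 signal minus the gene's own scramble mean (y axis) on each array (x axis) for GDF15 (221577_x_at, black) and the 10 genes most like it by Euclidean distance (left) or by Pearson r (right). Of the genes on the left, S100A8 comes nearest to GDF15 in siRRM1, at a mean of 4.23 against 4.40, and RGS1 is the 1 gene with a lower siRRM2 mean, 1.08 against 1.35. Those on the right have smaller steps, such as 2.06 for PLK2 in siRRM1.

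To set GDF15 beside its known upstream pathways, genes were tested with limma over the 7936 genes above the filter, at a Benjamini-Hochberg adjusted p under 0.05. In siRRM1 against scramble 15.5% of genes were called (8.22% higher and 7.33% lower), in siRRM2 against scramble 2.52% (2% higher and 0.517% lower), and in siRRM1 against siRRM2 0.164% (0.126% higher and 0.0378% lower). As numbers of genes these are 1234, 200 and 13. After centring the arrays on their medians, the siRRM1 calls were 572 higher and 818 lower, against 652 and 582 as deposited.

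Of 10 transcription factors known to act on GDF15 in various cells, 9 had a probe set and 8 were tested, and 3 rose in siRRM1, where 8.22% of all genes did. ATF3, a stress-induced factor downstream of both p53 and ATF4, had log2 signals of 8.50 and 8.98 in siRRM1, 7.28 and 7.85 in siRRM2, and 6.34 and 6.94 in scramble. It rose by 2.10 in siRRM1 (SE 0.26, adjusted p = 0.0034), and its difference in siRRM2 was 0.93 (adjusted p = 0.109). DDIT3, which encodes CHOP, had 8.08 and 8.69 in siRRM1, 7.15 and 7.46 in siRRM2, and 6.90 and 7.17 in scramble. It rose by 1.35 in siRRM1 (SE 0.21, adjusted p = 0.00725), with 0.27 in siRRM2 (adjusted p = 0.507), where siRRM2 replicate 1 overlapped with scramble. Both kept their siRRM1 calls without any single array.

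The third riser was TFEB, a regulator of lysosomal genes. It rose by 0.63 in siRRM1 (adjusted p = 0.0152) and lost the call without scramble replicate 2 (adjusted p = 0.0637) or siRRM1 replicate 2 (adjusted p = 0.084). ATF4 itself had a log2 difference of -0.22 in siRRM1 (adjusted p = 0.123), with signals of 11.96 and 11.92 against 12.12 and 12.21 in scramble. ATF4 is controlled largely at translation, which an mRNA array does not measure. EGR1, an immediate early factor, had 8.65 and 9.71 in siRRM1, 7.30 and 8.71 in siRRM2, and 7.13 and 8.57 in scramble. Its replicates lay over 1 log2 unit apart in every group, and its difference of 1.33 in siRRM1 did not pass (adjusted p = 0.163). CEBPB (0.25), TFE3 (0.27) and NFE2L2 (-0.14) did not pass in siRRM1 (adjusted p = 0.2, 0.13 and 0.563), and SP1 was below the filter. In siRRM2 and between the knockdowns limma called 0 of the 8 regulators, with 3 and 3 at an unadjusted p under 0.05.

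Most of the tested p53 targets rose in siRRM1, and fewer in siRRM2. The list had 40 genes, of which 33 had a probe set and 29 were tested. In siRRM1, 23 of the 29 rose and 0 fell, where 8.22% of all genes rose and 7.33% fell, with a median log2 difference of 0.91, against -0.01 over all genes. The largest rises were CDKN1A (2.83, SE 0.15), the death receptor FAS (2.08, SE 0.11), PLK2 (2.06, SE 0.12), DDB2, a sensor of ultraviolet damage (1.83, SE 0.17), and PMAIP1 (1.80, SE 0.12), with adjusted p between 0.00018 and 0.00128. Of the 23, 18 kept the call without each array in turn, among them all 5 of these genes.

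In siRRM2, 13 of the 29 rose and 0 fell, where 2% of all genes rose, and the median log2 difference was 0.51. CDKN1A rose by 2.09 (adjusted p = 0.00306) and FAS by 1.32 (adjusted p = 0.00408), and these were the 2 that kept the call without any single array. DDB2 (1.20, adjusted p = 0.0214), PHLDA3, an inhibitor of AKT signalling (0.89, adjusted p = 0.00962), and the stress sensor SESN1 (0.84, adjusted p = 0.00684) were next in size. CDKN1A signals of 11.33 and 11.30 in siRRM2 stood far above the 9.16 and 9.30 of scramble, beside a GDF15 difference of 1.35 there. The count of 13 became 5 when scramble replicate 1, scramble replicate 2 or siRRM2 replicate 1 was left out, and 2 when siRRM2 replicate 2 was.

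Between the knockdowns, 29 of the 29 tested p53 targets had a positive log2 difference (siRRM1 above siRRM2). The median was 0.38 and the range 0.09 to 1.24, against a median of -0.008 over all genes. Over the 33 with a probe set the lowest difference was -0.15. In the limma fit, 22 of the 29 had an unadjusted p under 0.05, and 797 of all 7936 genes did. Over all genes, 0.126% were called higher. By the test 2 passed, PLK2 (1.24, SE 0.12, adjusted p = 0.02) and PMAIP1 (1.06, SE 0.12, adjusted p = 0.0334). TP53I3 (1.01, SE 0.14, adjusted p = 0.0512) and FAS (0.75, adjusted p = 0.0656) did not, nor did CDKN1A (0.74, adjusted p = 0.144) or the ubiquitin ligase MDM2 (0.36, adjusted p = 0.621). Against scramble, limma called MDM2 higher in siRRM1 (1.23, adjusted p = 0.0101) but not in siRRM2 (0.88, adjusted p = 0.075). The count of 2 was 0 without siRRM1 replicate 1, siRRM1 replicate 2 or siRRM2 replicate 1, and 1 without siRRM2 replicate 2.

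Targets of ATF4 and CHOP were called in siRRM1 at a share near that of all genes. Of 30 genes listed, 27 had a probe set and 26 were tested. In siRRM1, 4 rose and 1 fell, with a median log2 difference of 0.05, beside 8.22% higher and 7.33% lower over all genes, so the count is no result about the list. The 4 were ATF3 and DDIT3, SLC7A11, the cystine transporter (0.72, adjusted p = 0.00954), and CHAC1, which degrades glutathione (0.64, adjusted p = 0.0119). XPOT, a tRNA export factor, fell by 0.44 (adjusted p = 0.0469). Well-known members such as the asparagine synthetase ASNS (-0.030, adjusted p = 0.908) and the pseudokinase TRIB3 (0.26, adjusted p = 0.265) did not pass. Without siRRM1 replicate 2 the 5 calls became 2. The calls of SLC7A11 (adjusted p = 0.0648) and CHAC1 (adjusted p = 0.0757) were lost there, and that of CHAC1 also without scramble replicate 2 (adjusted p = 0.0512). XPOT lost its call in 5 of the 6 fits without an array, scramble replicate 2 being the exception (adjusted p between 0.0272 and 0.207). Limma called 0 of the 26 in siRRM2 and 0 between the knockdowns, with 7 and 3 at an unadjusted p under 0.05. In siRRM2 CHAC1 (0.41, adjusted p = 0.102) and ATF3 (0.93, adjusted p = 0.109) had the smallest p.

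**Figure D4:**
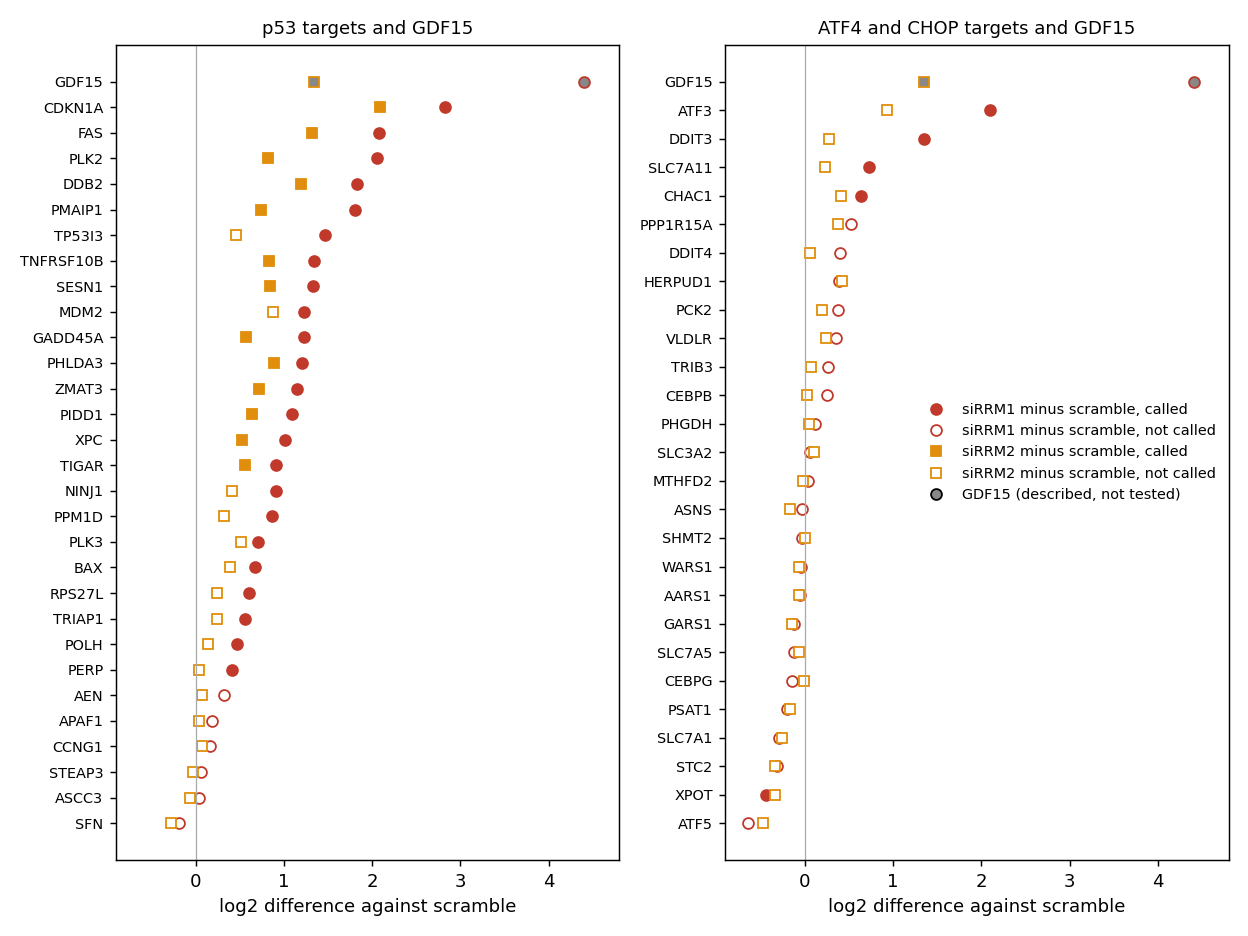
Log2 difference against scramble (x axis) for GDF15 (top, grey, not tested) and each tested gene (y axis) of the p53 target list (left) and the ATF4 and CHOP target list (right). Circles are siRRM1 minus scramble and squares siRRM2 minus scramble, filled where called by limma. On the left 23 circles and 13 squares are filled, on the right 5 circles and 0 squares, and GDF15 lies at 4.40 and 1.35.

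The genes that process GDF15 or carry its signal did not pass the test in any comparison. Of 6 listed, 5 had a probe set, and limma called 0 of the 5 in each comparison, with 1 at an unadjusted p under 0.05 in each. In siRRM1 against scramble, the convertases FURIN, PCSK5, PCSK6 and PCSK7 had log2 differences of 0.20, 0.30, 0.081 and 0.19 (adjusted p between 0.182 and 0.62). FURIN signals were 6.65 and 6.97 in siRRM1, 6.61 and 6.70 in siRRM2, and 6.46 and 6.76 in scramble, so its groups overlapped. RET had a log2 difference of -0.27 in siRRM1 (adjusted p = 0.0847) and -0.25 in siRRM2 (adjusted p = 0.185), with signals of 5.42 to 5.78 over the 6 arrays. GFRAL was not analysed here. The RET co-receptors of the GDNF ligands, GFRA1 to GFRA4, were all below the filter, with differences between -0.24 and 0.12 in siRRM1.

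The other ligands of the TGF-beta superfamily are given as family context, and since GDF15 was selected on its rise, its place above them is no result. Of 33 other ligands listed, 29 had a probe set, and their log2 differences in siRRM1 against scramble ranged from -0.36 to 0.51. The filter left 12, and 1 rose, where 8.22% of all genes did. It was GDF11 (0.39, SE 0.09, adjusted p = 0.0324), a close relative of myostatin. That call was lost when any single array was left out (adjusted p between 0.0523 and 0.157). TGFB1 had the largest difference of the 29 in both knockdowns, 0.51 in siRRM1 (adjusted p = 0.0788) and 0.62 in siRRM2 (adjusted p = 0.0989). Limma called 0 of the 12 in siRRM2 and 0 between the knockdowns, with 2 and 0 at an unadjusted p under 0.05.

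Of 22 receptors and SMADs of the superfamily, 20 had a probe set and 14 were tested. In siRRM1, 1 rose and 2 fell, with a median log2 difference of -0.096, and 15.5% of all genes were called there, so the count is no result about the list. SMAD6, an inhibitory SMAD, rose by 0.49 (adjusted p = 0.0248). SMAD4, the common partner SMAD, fell by 0.72 (adjusted p = 0.0142), and the type II receptor TGFBR2 fell by 0.61 (adjusted p = 0.0169). SMAD4 signals were 8.14 and 7.74 in siRRM1, 8.14 and 8.23 in siRRM2, and 8.71 and 8.61 in scramble. These calls did not hold when scramble replicate 1 was left out (adjusted p = 0.0883, 0.0685 and 0.0869 for SMAD6, SMAD4 and TGFBR2), nor without siRRM1 replicate 2 (adjusted p = 0.116, 0.0586 and 0.09), and that of SMAD6 also without scramble replicate 2 (adjusted p = 0.0848). Limma called 0 in siRRM2 and 0 between the knockdowns, with 3 and 2 at an unadjusted p under 0.05.

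Among 22 other secreted stress factors, 19 had a probe set and 9 were tested. In siRRM1 2 of the 9 rose, where 8.22% of all genes did. In siRRM2 1 of the 9 rose, where 2% of all genes did. HBEGF, a ligand of the EGF receptor, had log2 signals of 8.69 and 9.10 in siRRM1, 7.52 and 8.08 in siRRM2, and 7.05 and 7.63 in scramble. It rose by 1.55 in siRRM1 (SE 0.25, adjusted p = 0.00809), a call lost without siRRM1 replicate 2 (adjusted p = 0.066), and had 0.46 in siRRM2 (adjusted p = 0.339). TIMP1, a metalloproteinase inhibitor, rose by 0.45 in siRRM1 (adjusted p = 0.0193) and by 0.50 in siRRM2 (adjusted p = 0.0416). In siRRM1 the TIMP1 call needed scramble replicate 1 (adjusted p = 0.105 without it) and siRRM1 replicate 2 (adjusted p = 0.0956 without it), and in siRRM2 it was lost when any single array was left out (adjusted p between 0.0555 and 0.219). Between the knockdowns limma called 0 of the 9, with 2 at an unadjusted p under 0.05. FGF21, the other ATF4-driven stress hormone, was below the filter with a log2 difference of -0.038 in siRRM1.

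**Figure D5:**
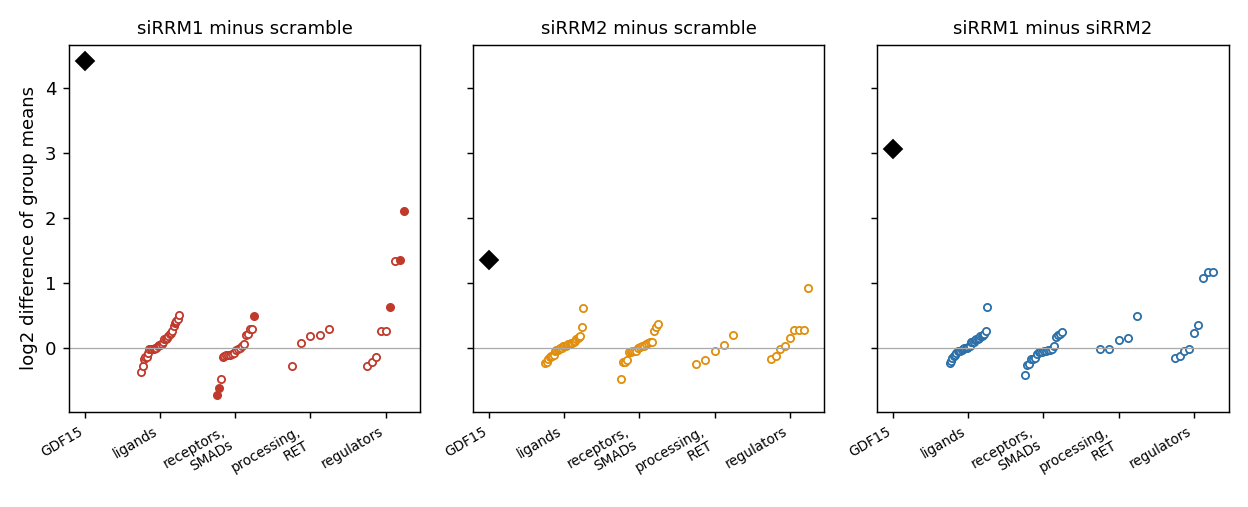
Log2 difference of group means (y axis) for GDF15 (black diamond) and for every listed gene with a probe set among other TGF-beta family ligands, receptors and SMADs, processing enzymes with RET, and regulators (x axis), in the 3 comparisons. Filled circles were called by limma, and open circles were not called or were below the filter. GDF15 stands at 4.40, 1.35 and 3.06, and the highest listed gene is ATF3, at 2.10 in siRRM1.

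The genes around GDF15 on chromosome 19 are described for context, and those directly after it in the annotation were not analysed here. Of the 10 nearest protein-coding genes with a probe set on each side in RefSeq order, 17 of 20 were tested, and the log2 differences of the 20 ranged from -0.33 to 0.73 in siRRM1. The nearest on either side were PGPEP1 (0.25, adjusted p = 0.11), a pyroglutamyl peptidase, and ISYNA1 (0.47, adjusted p = 0.0856), an enzyme of inositol synthesis. MAST3, a kinase gene 5 such steps away, rose by 0.73 (adjusted p = 0.00771) and was the 1 gene called, a call lost without siRRM1 replicate 2 (adjusted p = 0.058). In siRRM1, 8.22% of all genes rose, so 1 of the 17 is no result about the neighbours. An unadjusted p under 0.05 was held by 5 of the 17 and by 2587 of all 7936 genes, so that count is no result either. Limma called 0 of the 17 in siRRM2 and 0 between the knockdowns, with 3 and 1 at an unadjusted p under 0.05. Over all 7936 genes, 1616 and 797 were under it.

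The labelled cell type was borne out by its markers. All 10 myeloma and plasma cell markers, among them SDC1, TNFRSF17 and the t(4;14) partners NSD2 and FGFR3, had signals above the filter on each of the 6 arrays. Their summed linear signal was 28941 and 27771 in siRRM1, 34915 and 32520.4 in siRRM2, and 34452 and 33325 in scramble, lowest on the siRRM1 arrays. In siRRM1, where 7.33% of all genes fell, 2 of the 10 did, IRF4 by 0.63 (adjusted p = 0.0449) and FGFR3 by 0.54 (adjusted p = 0.0172), both calls being lost without siRRM1 replicate 2 (adjusted p = 0.223 and 0.0865). IRF4 also failed when scramble replicate 1 (adjusted p = 0.196) or siRRM2 replicate 2 (adjusted p = 0.0503) was left out, and FGFR3 when scramble replicate 2 was (adjusted p = 0.0709).

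Markers of other cells that make GDF15 were checked beside it. Of 8 myeloid markers, 7 had a probe set, and their summed linear signal was 673 and 1521 in siRRM1, 352 and 711 in siRRM2, and 214 and 227 in scramble. Every knockdown array lay above both scramble arrays. The siRRM1 and siRRM2 sums overlapped, with siRRM2 replicate 2 (711) above siRRM1 replicate 1 (673). A linear sum weighs the brightest markers most. In siRRM1 these were S100A8 (log2 signals of 7.88 and 9.46) and S100A9 (7.94 and 9.03). All 3 that were tested rose in siRRM1 (S100A8 by 4.23, S100A9 by 2.55, and CSF1R), and the calls of S100A9 (adjusted p = 0.058) and CSF1R (adjusted p = 0.0502) were lost without siRRM1 replicate 2, that of CSF1R also without scramble replicate 1 (adjusted p = 0.0706). In siRRM2 limma called 0 of the 3, with 2 at an unadjusted p under 0.05. CD14, ITGAM, LYZ and MPO were below the filter on every array. S100A8 was under it in scramble (4.45 and 4.44) and passed it through the knockdown arrays, as GDF15 did. The count of 3 is therefore no result about the list. Over the 7 markers with a probe set, the median log2 difference in siRRM1 was 0.16. The part of such cells in the GDF15 signal was not tested. The 8 epithelial and trophoblast markers had a summed signal of 508 to 533 over the 6 arrays, and limma called 0 of the 2 tested in each comparison, 0 also at an unadjusted p under 0.05. The 7 T and NK cell markers summed to 385 to 460 and the 6 fibroblast markers to 261 to 305, and limma called 0 of the 2 and 0 of the 1 tested in each comparison, with at most 1 at an unadjusted p under 0.05.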

How the data were processed

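Gene expression was measured on Affymetrix-type arrays from biotin-labelled cRNA, per the labels' protocols. For 22277 probe sets the authors deposited log2 signals. Their summarisation and normalization are not stated in the labels, and the log base was read from the range of values. Array medians lay between 6.11 and 6.16, so no further scaling was applied. Platform annotation gave 19070 probe sets 1 gene symbol, 1043 several and 2164 none, and only the first were named. Gene IDs of 19058 probe sets matched RefSeq (GRCh38.p14), which changed 0 symbols.

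Ranks used all probe sets. For tests, the probe set with the highest mean stood for each of 11963 genes, and 7936 genes reached the 40th percentile of mean signal (5.44). Limma 3.58.1 in R 4.3.3 (lmFit, eBayes) was fitted over the 6 arrays with 3 residual and 4.61 prior degrees of freedom, two-sided, with Benjamini-Hochberg adjustment over the 7936 genes. The fit was tested on simulated data.

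GDF15, the gene lists, tests and alternatives were chosen with earlier results of these data known, so lists are described by counts and medians only. Genes were named by a rule: GDF15 probe sets, the siRNA targets, the 10 largest rises per comparison, the 10 genes nearest by each likeness measure, all measured regulators and processing or receptor genes, the leading called members of longer lists, CDKN1A, MDM2, DDIT3 and ATF3, and chromosomal neighbours. Named outside it, after their values were seen, were ASNS, TRIB3, FGF21, ZFP36L2, PTPRC, TGFB1 in siRRM1 and the markers. Some genes were not analysed here. The number of arrays, 2 a group, limits precision.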

Additional observations from a re-analysis of the deposited data

How the results depend on the processing

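The GDF15 log2 differences of 4.40, 1.35 and 3.06 (siRRM1 against scramble, siRRM2 against scramble, siRRM1 against siRRM2) were 4.36, 1.31 and 3.05 with arrays centred on their medians and 4.40, 1.32 and 3.08 with quantile normalization. Leaving out arrays gave 4.17 to 4.64, 1.14 to 1.55 and 2.82 to 3.29. With 2 arrays a group, such a shift is by construction under the SD of the group that lost the array. The replicate block leaves these differences as they are by construction. The choice of probe set moved them. The other probe set gave 0.11, 0.060 and 0.054, and the mean of both gave 2.26, 0.70 and 1.56; the cause was not tested. Leaving out arrays, the ranks were 1 to 3 (1 without scramble replicate 1 or siRRM1 replicate 2), 26 to 47 (47 without scramble replicate 2) and 1 to 2 (2 without either siRRM1 array), and scaling or the restriction to tested genes kept them within 1.5 times.

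Counts of called genes were less stable. Without single arrays they were 307 to 1222, 13 to 203 and 2 to 16 genes in the 3 comparisons. In siRRM1 there were 505 without scramble replicate 1, 709 without scramble replicate 2 and 307 without siRRM1 replicate 2. In siRRM2 there were 36 and 51 without scramble replicates 1 and 2, and 35 and 13 without siRRM2 replicates 1 and 2. Between the knockdowns there were 4 and 2 without siRRM1 replicates 1 and 2, and 3 and 6 without siRRM2 replicates 1 and 2. With a trend in eBayes there were 336 genes in siRRM2 and 42 between the knockdowns, and with the filter at the 60th percentile 4 between the knockdowns. The p53 targets called were 19 to 23, 2 to 12 and 0 to 3 without single arrays, and between the knockdowns 6 with the trend and 1 with the stricter filter. ATF4 and CHOP targets called were 2 to 5 in siRRM1 without single arrays and stayed at 0 in both other comparisons. A fit without one array assumes that the lone array of that group varies like the others.

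The labels do not say that replicate numbers pair the arrays, so the replicate block is an alternative only. Replicate deviations correlated between groups at 0.21, 0.38 and 0.36 over genes, a hint from the data. With the replicate block 1904, 622 and 153 genes were called, 13 p53 targets between the knockdowns, and 11, 2 and 2 ATF4 and CHOP targets (siRRM1, siRRM2 and between the knockdowns). For p53 targets against scramble the block kept the counts within 1.5 times. By Pearson r in place of distance, 1 of the 10 most alike genes was shared.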

Other observations

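CXCL8, a chemokine that attracts neutrophils and belongs to the list of other secreted stress factors, was below the filter and not tested. Its log2 signals were 3.98 and 6.09 in siRRM1, 3.71 and 4.36 in siRRM2, and 3.33 on both scramble arrays. The siRRM1 replicates differed by over 2 log2 units, a gap not seen for GDF15, whose siRRM1 arrays were 8.93 and 9.40. It was named after its values were seen.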
